A study of Mus musculus with 12 samples.

Results

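The transcripts of 9 genes around the transcription factor p53 were followed in sorted Lgr5-EGFP hi intestinal stem cells (ISCs): Trp53, which encodes p53, Mdm2, Trp53inp1, Trp53inp2, Ccng1, Phlda3, Bax, Bbc3 and Pmaip1. They were taken by symbol from the 47729 genes of the count table, and all 9 passed the filter on low counts in every comparison. The set was chosen by the CORT over Vehicle fold change of Trp53inp1, which was known, together with genes named for p53, so the CORT vs. Vehicle values of the 9 genes are given as a description, with no test. RNA was measured in 12 libraries of 4 groups, 3 libraries each, from Lgr5-EGFP-IRES-creERT2 mice aged 8 to 10 weeks, in which EGFP and an inducible Cre are expressed from the Lgr5 locus. Ctrl mice were not restrained, and per the study's methods had no food or water for the same time. CRS mice were restrained once for 3 h in a ventilated tube. Vehicle mice received 1 intraperitoneal injection of the sulfobutylether-β-cyclodextrin solution, and CORT mice received 5 mg/kg corticosterone, the main glucocorticoid of rodents, in that solution. The cells of all 4 groups were sorted as live, EpCAM-positive, CD24-negative and EGFP-high, without blood and endothelial cells. The CRS libraries numbered 1+2 and 4+5+6 were read as pools of mice, and the sex of the mice is not given for each library. Both sexes were used.

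p53 is a transcription factor that is held at a low protein level by Mdm2, an E3 ubiquitin ligase that is itself a p53 target, and it is freed from that control mainly at the protein level, for instance after DNA damage. Its targets stop the cell cycle, repair DNA, limit growth signals, drive autophagy or trigger mitochondrial apoptosis, and in crypts the BH3-only protein PUMA, the product of Bbc3, is known for the death of stem cells after irradiation. Trp53inp1 is a p53 target that encodes a stress-induced protein of the nucleus and of autophagosomes, which binds proteins of the LC3 family. Its paralogue Trp53inp2 encodes a protein that also acts in autophagy and as a coactivator of thyroid hormone receptors.

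The paralogues are first shown by sequence, since one of them passed the test in CRS vs. Ctrl and the other did not. Trp53inp1 lies at chr4:11156431-11174379 and Trp53inp2 at chr2:155381059-155389850, both on the plus strand of GRCm38 (mm10). In the GENCODE transcripts Trp53inp1-201 and Trp53inp2-201 the coding sequences have 720 and 666 bases. In a global alignment 384 of the 614 columns with a base in both were identical, which is 62.5%. The most similar ungapped stretch of 60 coding bases had 43 identical bases, shown in capitals. It lies in 1 exon of each gene, at chr4:11165315-11165374 for Trp53inp1 and chr2:155386025-155386084 for Trp53inp2.
Trp53inp1: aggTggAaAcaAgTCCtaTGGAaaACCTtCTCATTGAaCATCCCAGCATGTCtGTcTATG
Trp53inp2: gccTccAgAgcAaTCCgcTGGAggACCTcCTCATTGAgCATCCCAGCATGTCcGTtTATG

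Promoter windows of 300 bases, from 250 bases before to 50 bases after an annotated RefSeq start (GRCm38.p6), were held for 7 of the 9 genes, and were missing for Trp53inp1 and Pmaip1. The p53 half-site, 10 bases made of 3 purines, C, 2 bases that are A or T, G and 3 pyrimidines and the same on both strands, was found in the windows of 4 of these 7 genes, Trp53, Mdm2, Ccng1 and Bax. These 7 genes had 9 windows in all, since Bbc3 had more than 1. Of all 32851 windows, 8.36% held the half-site, a share of windows and not of genes. No window of the 9 genes held a full p53 site (2 half-sites with at most 13 bases between them), found in 0.0731% of all windows, or the glucocorticoid motif GNACANNNTGTNC on either strand, found in 0.475%. One of 2 windows of the p53 target Cdkn1a, which was not among the 9 genes, held a full p53 site with a spacer of 12 bases. Sesn1, a p53 target that also rose after CORT, had no full site in its 2 windows and a half-site in 1 of them. The windows of Mdm2 and Ccng1, neither of which passed the test in any comparison, and that window of Cdkn1a, which rose after CORT, are shown with the half-sites in capitals. The Mdm2 window is chr10:117710709-117711008 on the minus strand, with the half-site at -186 to -177 from the start. The Ccng1 window is chr11:40755237-40755536 on the minus strand, with the half-site at -185 to -176. The Cdkn1a window is chr17:29090729-29091028 on the plus strand, with half-sites that begin at -73 and -51.
Mdm2: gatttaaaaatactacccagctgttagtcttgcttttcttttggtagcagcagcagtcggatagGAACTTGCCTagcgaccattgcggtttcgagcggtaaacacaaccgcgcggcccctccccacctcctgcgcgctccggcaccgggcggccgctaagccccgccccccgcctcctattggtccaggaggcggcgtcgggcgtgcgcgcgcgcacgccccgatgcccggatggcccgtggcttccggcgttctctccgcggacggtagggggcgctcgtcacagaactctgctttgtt
Ccng1: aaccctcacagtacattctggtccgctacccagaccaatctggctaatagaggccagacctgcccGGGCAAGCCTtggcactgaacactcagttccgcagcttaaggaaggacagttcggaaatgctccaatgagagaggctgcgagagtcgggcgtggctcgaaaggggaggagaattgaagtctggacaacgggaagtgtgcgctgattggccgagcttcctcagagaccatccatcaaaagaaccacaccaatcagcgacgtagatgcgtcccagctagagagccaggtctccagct
Cdkn1a: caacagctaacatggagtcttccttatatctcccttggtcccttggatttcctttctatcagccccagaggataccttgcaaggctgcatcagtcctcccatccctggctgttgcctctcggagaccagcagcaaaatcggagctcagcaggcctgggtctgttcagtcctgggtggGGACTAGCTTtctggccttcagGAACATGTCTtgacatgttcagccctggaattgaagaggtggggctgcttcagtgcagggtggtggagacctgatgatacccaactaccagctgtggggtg
The half-site was GGACTTGCCC in the Trp53 window and AGGCAAGCTT in the Bax window. A match is a description of these letters and not evidence of binding.

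Library totals were between 16152289 and 16943362 estimated counts in Ctrl, 15934907 and 17135770 in CRS, 16465961 and 31280267 in Vehicle, and 29426183 and 69533214 in CORT. A count stands for 75 covered bases, so a read pair can give up to 4 counts. The 6 ISC markers, Lgr5 and Olfm4 among them, had list medians of 434 to 607 CPM (counts scaled to library size with TMM factors) over the 12 libraries. Ascl2, a transcription factor of ISCs, was lower in CRS than in Ctrl (log2 -1.23, adjusted p = 3.36e-04, edgeR) and in CORT than in Vehicle (0.501-fold, adjusted p = 0.0114, edgeR). Lgr5 (log2 -0.43, adjusted p = 0.0277, edgeR) and Smoc2 (log2 -0.31, adjusted p = 0.0474, edgeR) were also lower in CORT. Of the 6 ISC markers, 1 passed an adjusted p of 0.05 in CRS and 3 in CORT, beside 1.89% and 8.13% of all genes. Means went the other way for Olfm4 in CRS (9265 CPM, Ctrl 7931) and in CORT (8200 CPM, Vehicle 7379). Slc12a2 was also higher in CRS (2379 CPM, Ctrl 2054), and neither gene passed. The part of these differences in the results was not tested. The list medians were 6.38 to 236 CPM for 6 enterocyte markers, 15.3 to 38.2 for Paneth cell, 29.6 to 128 for goblet cell, 0.680 to 3.98 for enteroendocrine cell and 0.329 to 2.04 for tuft cell markers. They reached at most 0.318 CPM for blood cell and 0.161 CPM for stromal and endothelial markers, and Il25, Hbb-bs, Col3a1 and Acta2 had 0 counts in all 12 libraries. In bulk RNA, fewer cells of a type and less RNA per cell cannot be told apart. The labels name no sequencing date or batch. The study's methods call the samples of a group biologically independent, and the labels do not tie each library to its mice.

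Trp53inp1 was the 1 gene of the 9 that passed the test in CRS vs. Ctrl. It had 30.2, 24.5 and 17.3 CPM in the Ctrl libraries and 92.1, 88.6 and 82.1 CPM in the CRS libraries. All CRS libraries were above all Ctrl libraries, and the groups of 20.4% of all tested genes did not overlap in this comparison. The means were 87.6 ± 5.06 CPM in CRS and 24.0 ± 6.45 CPM in Ctrl (SD, n = 3), a 3.65-fold difference (log2 1.87, SE 0.17, adjusted p = 6.24e-04, edgeR quasi-likelihood test). Of the 13722 genes tested, 260 passed an adjusted p of 0.05 (1.89% of genes), 103 of them above 2-fold (0.751%), and Trp53inp1 ranked 15th by adjusted p. Among the 9 genes, 1 passed at either threshold, and 6 had a log2 fold change above 0. At an unadjusted p under 0.05 (edgeR) there were 2, Trp53inp1 and Pmaip1, beside 15.2% of all genes.

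After CORT the level of Trp53inp1 was higher still. It was 15.2, 15.4 and 11.9 CPM in the Vehicle libraries and 224, 220 and 154 CPM in the CORT libraries, in the order 2, 4 and 5. The CORT libraries did not overlap with Vehicle, as was the case for 28.7% of tested genes, and CORT 5 was the lowest of them. The means were 199 ± 39.3 CPM and 14.1 ± 1.95 CPM (SD, n = 3), which is 14.2-fold (log2 3.83, SE 0.17). In this comparison 8.13% of the 14656 genes tested passed an adjusted p of 0.05 and 1.87% did so above 2-fold, and Trp53inp1 was the 1 of the 9 genes that passed both. This count rests on the contrast that was known when the genes were chosen, so nothing is read from it.

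Trp53inp1 was also lower in Vehicle than in Ctrl, with every Vehicle library below every Ctrl library (log2 -0.76, SE 0.21), in a comparison where 16.3% of tested genes did not overlap. This difference did not pass the test (adjusted p = 0.146, edgeR), while DESeq2 gave an adjusted p of 0.0326. The adjusted p over the 15 alternatives was 0.0326 to 0.552. The Vehicle values were part of the fold change by which Trp53inp1 was chosen, so nothing is read from these p-values. The Ctrl libraries are shared with the CRS comparison and the Vehicle libraries with the CORT comparison, so the 3 comparisons are not independent. The difference of the CRS and CORT responses of Trp53inp1 was -1.96 on the log2 scale (SE 0.26), the response to CORT being the larger one. In that test 0.388% of 14415 genes passed an adjusted p of 0.05 and 1 of the 9 genes did, Trp53inp1, of which nothing is read for the same reason.

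**Figure D1:**
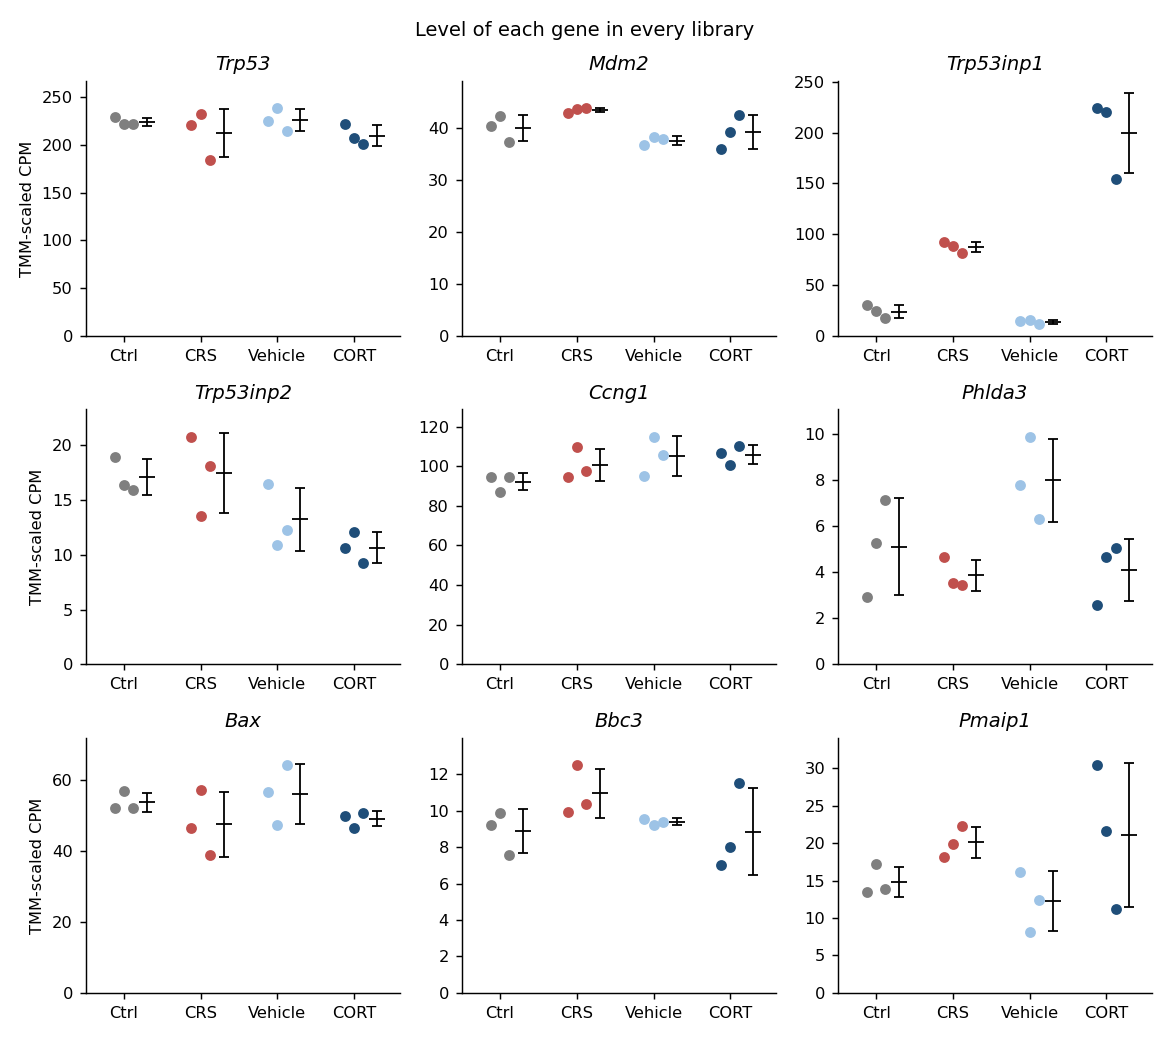
Level of the 9 genes in each library (points, TMM-scaled CPM, axes from 0) by group, with the mean ± SD of 3 libraries (bars). Trp53inp1 separates the groups in the order Vehicle, Ctrl, CRS and CORT, from 11.9 to 224 CPM, while the groups of Trp53 lie between 184 and 238 CPM.

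Trp53inp2 did not share this pattern. Its level was 19.0, 16.3 and 15.9 CPM in Ctrl, and 20.8, 13.5 and 18.1 CPM in CRS. It was 16.5, 10.9 and 12.3 CPM in Vehicle and 10.7, 12.1 and 9.26 CPM in CORT. The groups overlapped within both pairs. The log2 fold change was 0.04 in CRS vs. Ctrl (SE 0.19, adjusted p = 0.951, edgeR) and -0.37 in Vehicle vs. Ctrl (SE 0.19, adjusted p = 0.527, edgeR), and it was -0.31 (SE 0.19) in CORT vs. Vehicle. On the scale of fragments per kilobase of transcript and depth (FPKM), which allows a comparison between genes, the ratio of Trp53inp1 to Trp53inp2 was 0.671 to 1.09 in Ctrl, 3.02 to 4.07 in CRS, 0.525 to 0.887 in Vehicle and 11.1 to 13.6 in CORT. The paralogues were near each other in Ctrl, and in every CORT library Trp53inp1 RNA was at least 11.1-fold above Trp53inp2 RNA.

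p53 itself and its ligase were near level in all groups. Trp53 (chr11:69580359-69591873, plus strand) had 229, 222 and 221 CPM in Ctrl, 221, 232 and 184 CPM in CRS, 225, 238 and 215 CPM in Vehicle, and 221, 207 and 201 CPM in CORT. The lowest of the 12 values was that of CRS 4+5+6, and the groups overlapped within both pairs. Its log2 fold change was -0.08 in CRS vs. Ctrl (SE 0.10, adjusted p = 0.784, edgeR) and -0.11 (SE 0.08) in CORT vs. Vehicle. Mdm2 (chr10:117688888-117710758, minus strand) had 40.3, 42.2 and 37.3 CPM in Ctrl and 42.9, 43.6 and 43.7 CPM in CRS. All CRS libraries of Mdm2 were above Ctrl, yet the difference was 0.12 on the log2 scale (SE 0.10, adjusted p = 0.643, edgeR). In Vehicle it was 36.7, 38.2 and 37.7 CPM and in CORT 35.8, 39.1 and 42.4 CPM, a difference of 0.06 (SE 0.09). RNA levels say nothing of the amount of p53 protein, which was not measured here.

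Ccng1 encodes cyclin G1, a p53 target that recruits a phosphatase to Mdm2. It lies at chr11:40748552-40755311 on the minus strand. Its level was 94.7, 87.1 and 94.8 CPM in Ctrl, 94.5, 110 and 97.7 CPM in CRS, 94.9, 115 and 106 CPM in Vehicle, and 107, 101 and 110 CPM in CORT. The fold change was 0.13 on the log2 scale in CRS vs. Ctrl (SE 0.09, adjusted p = 0.574, edgeR) and 0.01 (SE 0.09) in CORT vs. Vehicle. Each Vehicle library was above each Ctrl library, which did not pass the test (log2 0.19, SE 0.09, adjusted p = 0.472, edgeR).

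Phlda3, whose product competes with Akt for membrane lipids, was the 1 gene of the 9 with lower levels in all CORT than in all Vehicle libraries. In this comparison the groups of 28.7% of all tested genes did not overlap, in either direction, so nothing is read from this count. Phlda3 lies at chr1:135766119-135769136 on the plus strand. Its level was 7.79, 9.89 and 6.32 CPM in Vehicle and 2.59, 4.69 and 5.06 CPM in CORT, which is -0.97 on the log2 scale (SE 0.29). In Ctrl it was 2.92, 5.26 and 7.13 CPM and in CRS 4.67, 3.52 and 3.46 CPM. These groups overlapped (log2 -0.39, SE 0.37, adjusted p = 0.685, edgeR). Phlda3 had 50 to 277 counts a library and the largest standard error of the 9 in CRS vs. Ctrl.

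The 3 genes of mitochondrial apoptosis gave no common direction. Bax, which forms pores in the outer mitochondrial membrane, lies at chr7:45461695-45466898 on the minus strand and shares 192 exon bases with Gm45808 on the same strand. Gm45808 was not among the 47729 genes counted, and how reads of the shared bases were assigned is not known. Bax had 52.2, 56.8 and 52.3 CPM in Ctrl, 46.5, 57.1 and 38.9 CPM in CRS, 56.5, 47.4 and 64.2 CPM in Vehicle, and 49.95, 46.6 and 50.7 CPM in CORT. The groups overlapped in both pairs, and the log2 fold change was -0.18 in CRS vs. Ctrl (SE 0.14, adjusted p = 0.610, edgeR) and -0.20 (SE 0.11) in CORT vs. Vehicle.

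Bbc3 (chr7:16309616-16318205, plus strand) had 9.24, 9.87 and 7.56 CPM in Ctrl and 9.95, 12.5 and 10.4 CPM in CRS. The CRS libraries were all above Ctrl, but not past the test (log2 0.30, SE 0.21, adjusted p = 0.560, edgeR). In Vehicle it had 9.57, 9.19 and 9.40 CPM and in CORT 7.01, 8.01 and 11.5 CPM, so that CORT spanned Vehicle on both sides (log2 -0.09, SE 0.21).

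Pmaip1, which encodes the BH3-only protein NOXA, had higher mean levels in both CRS and CORT than in their controls, without passing the test in CRS. It had 13.5, 17.2 and 13.8 CPM in Ctrl and 18.2, 19.9 and 22.3 CPM in CRS, with no overlap. The log2 fold change of 0.44 (SE 0.16) had an adjusted p of 0.236 with edgeR in that comparison. In Vehicle it had 16.2, 8.15 and 12.4 CPM and in CORT 30.4, 21.7 and 11.3 CPM, a log2 difference of 0.79 (SE 0.35) in which CORT 5 lay within the Vehicle range.

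Over the 9 genes, 4 had CRS libraries wholly above Ctrl (Trp53inp1, Mdm2, Bbc3 and Pmaip1) and 0 wholly below, beside 20.4% of all tested genes whose groups did not overlap in either direction. The median log2 fold change of the 9 was 0.12 in CRS vs. Ctrl, beside a median of -0.00281 over all tested genes. The 8 genes other than Trp53inp1 had log2 fold changes of -0.39 to 0.44 in CRS vs. Ctrl (adjusted p = 0.236 to 0.951, edgeR), and of -0.97 to 0.79 in CORT vs. Vehicle. In Vehicle vs. Ctrl 0 of the 9 genes passed an adjusted p of 0.05 with edgeR, beside 0.799% of 13642 genes. Trp53inp1 was the 1 that passed at an unadjusted p under 0.05, beside 11.1% of all genes. It was also the 1 that passed with DESeq2, which called 297 of 20742 genes. Its Vehicle values were part of the fold change that chose it, so nothing is read from this.

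**Figure D2:**
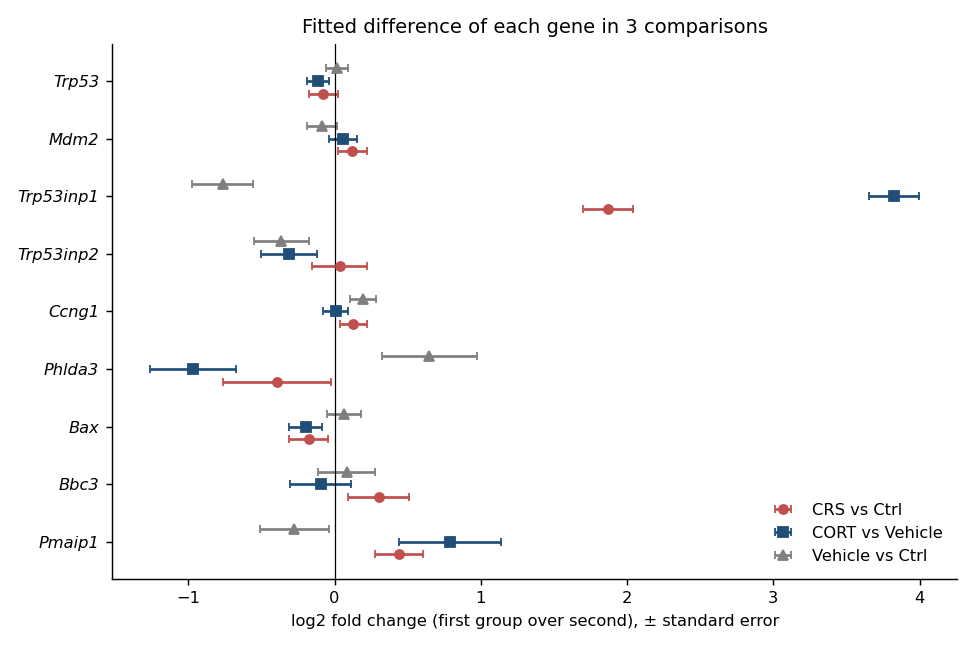
Fitted log2 fold change of each gene (x axis, first group over second, bars of ± 1 standard error) in CRS vs. Ctrl, CORT vs. Vehicle and Vehicle vs. Ctrl, from 3 libraries a group. Trp53inp1 stands at 1.87, 3.83 and -0.76, and the other 8 genes lie between -0.97 and 0.79 in the first 2 comparisons.

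Between genes, levels were compared as FPKM. In Ctrl the order was Trp53 with 110 ± 1.56, Bax with 55.6 ± 2.31, Ccng1 with 23.6 ± 1.38 and Mdm2 with 12.4 ± 0.484 FPKM (SD, n = 3), whose libraries did not overlap with each other. The other 5 genes followed between 3.19 and 5.03 FPKM, and neighbours among them overlapped. Trp53 was above 95.9% of the 14415 genes compared, and Trp53inp1, at 3.98 ± 1.04 FPKM, above 35.8%. In CRS Trp53inp1 was the fourth of the 9 at 14.9 ± 0.907 FPKM, overlapping with Mdm2 at 13.6 ± 1.11. In CORT it was the third at 32.2 ± 6.82 FPKM, overlapping with Ccng1 at 26.0 ± 1.68. In Vehicle it was the lowest of the 9 at 2.38 ± 0.355 FPKM, below all Vehicle values of Trp53inp2, the next gene.

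The genes with the profile most like Trp53inp1 over the 12 libraries were Herpud1, Hpgd, Fam43a, Ddit4 and Tsc22d3. Likeness was the root mean square difference between log2(CPM + 1) profiles centred on their means, among 14414 other genes, and was 0.395, 0.398, 0.444, 0.559 and 0.560 for them, beside a median of 1.498 over all genes. The 12 libraries share the 4 groups, so every gene that is high in CRS and CORT is near by this measure. Herpud1 encodes a protein of endoplasmic reticulum associated degradation, Hpgd a prostaglandin dehydrogenase, Ddit4 an inhibitor of mTORC1 and Tsc22d3 the glucocorticoid-induced leucine zipper. Herpud1 had 79.8 to 117 CPM in Ctrl, 359 to 367 CPM in CRS, 66.5 to 90.3 CPM in Vehicle and 452 to 646 CPM in CORT. Of the other 8 genes Pmaip1 was the nearest, at rank 341 with a distance of 1.25, and Phlda3 the farthest, at rank 14133 with 1.84.

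**Figure D3:**
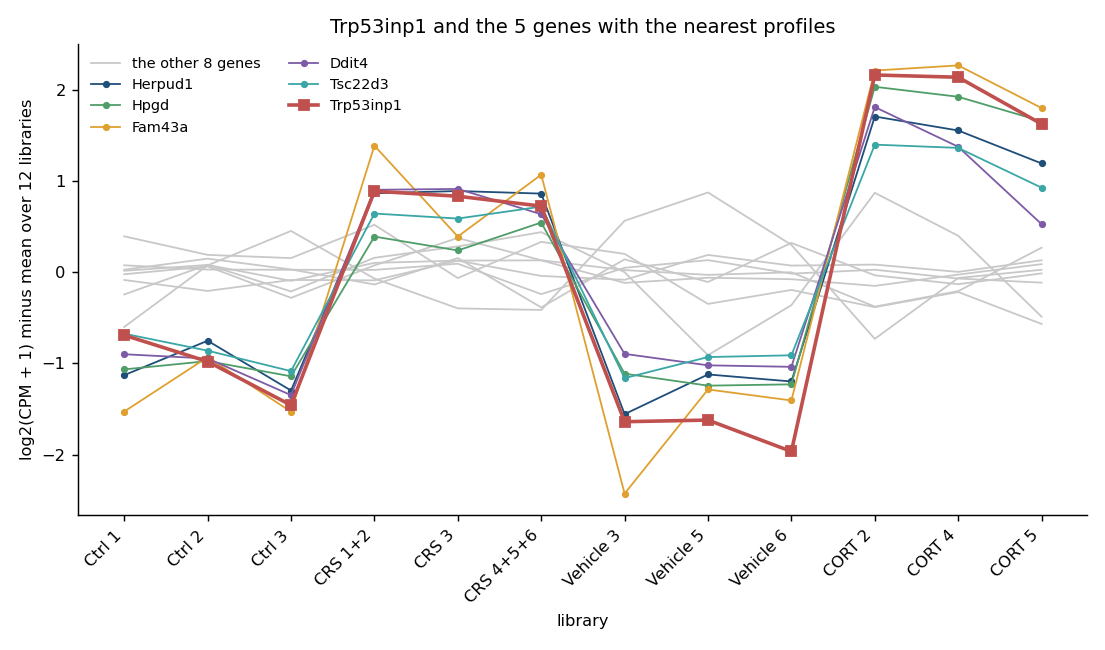
Centred log2(CPM + 1) of Trp53inp1 (red squares), the 5 genes with the nearest profiles (coloured) and the other 8 genes (grey) in each of the 12 libraries (x axis). The 6 coloured profiles are low in Ctrl and Vehicle, higher in CRS and highest in CORT, except Ddit4 in CORT 5, which is below its CRS values, and the grey ones stay within about 1 of their own mean.

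Enterocyte markers moved with the CRS libraries. Their summed level was 83.9 to 107 CPM in Ctrl and 271 to 1555 CPM in CRS. Of the 6 markers 6 rose with an adjusted p below 0.05 (edgeR), beside 1.89% of all genes called. Their median log2 fold change was 3.36. In CORT the sum was 39.5 to 101 CPM and in Vehicle 79.1 to 133 CPM. Of the 6 markers 0 were called in CORT vs. Vehicle, beside 8.13% of all genes. In Vehicle vs. Ctrl 1 was called, beside 0.799% of all genes: Fabp1, which was higher in Vehicle. The highest sum was that of CRS 4+5+6, and without this library the log2 fold change of Trp53inp1 in CRS vs. Ctrl was 1.91. The CRS libraries left in that fit, 1+2 and 3, also had sums above Ctrl (721 and 271 CPM), so it does not set the markers aside. Goblet cell markers were higher in CRS for 6 of 6, of which Clca1 and Zg16 were called, beside 1.89% of all genes. They summed to 505 to 1458 CPM in CRS and 491 to 614 CPM in Ctrl. Paneth cell markers summed to 104 to 116 CPM in CORT and 186 to 211 CPM in Vehicle. Of the 6, 4 (Mmp7, Defa24, Defa17 and Itln1) were called lower in CORT, beside 8.13% of all genes called in either direction. Mmp7 was called higher in CRS (log2 0.87, adjusted p = 0.0285, edgeR) and in Vehicle, both against Ctrl. In CORT the tuft cell marker Pou2f3 was lower (log2 -1.14, adjusted p = 0.0317, edgeR). It was the 1 called of 3 tuft cell markers tested, beside 8.13% of all genes. The median log2 fold change of the 3 was -0.20, and Avil had a higher mean in CORT (1.06 CPM) than in Vehicle (0.695 CPM). The endothelial marker Pecam1 was higher in CORT (log2 2.12, adjusted p = 0.0427, edgeR), at means of 2.35 CPM in CORT and 0.544 CPM in Vehicle. The part of RNA from other cell types in the values of the 9 genes was not tested. The early response genes (Fos, Fosb, Jun, Junb, Egr1, Atf3, Ier2, Ier3, Hspa1a and Hspa1b), which also react to cell isolation, summed to 537 to 716 CPM in Ctrl and 284 to 348 CPM in Vehicle, where Trp53inp1 was lower too. They were 533 to 820 CPM in CRS and 293 to 310 CPM in CORT. Their part in the difference between Vehicle and Ctrl was not tested.

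**Figure D4:**
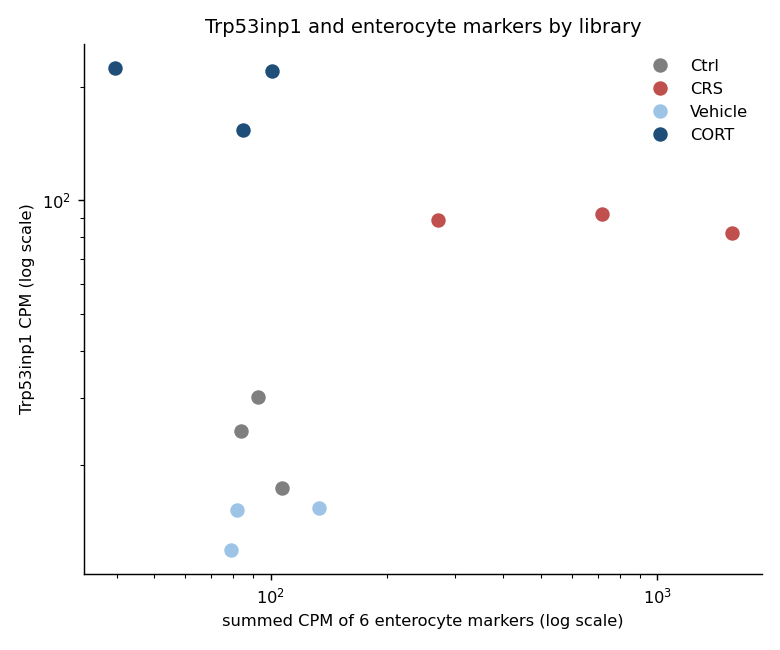
Trp53inp1 level (y axis, CPM, log scale) against the summed level of 6 enterocyte markers (x axis, CPM, log scale), 1 point a library, coloured by group. The CORT libraries are at 154 to 224 CPM of Trp53inp1 with marker sums of 39.5 to 101 CPM, and the CRS libraries at 82.1 to 92.1 CPM with sums of 271 to 1555 CPM.

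Of 33 further p53 targets, 31 were tested in each comparison. This list, like those of p53 regulators, BCL-2 family and partners below, was chosen with earlier results of these data known. The p-values of the lists are therefore given as a description. In CRS vs. Ctrl 4 were called, 2 higher and 2 lower, beside 1.89% of all genes, and the median log2 fold change of the 31 was 0.03. At an unadjusted p under 0.05 (edgeR) there were 11, beside 15.2% of all genes. The CRS libraries lay wholly above Ctrl for 5 of the 31 and wholly below for 7, beside 20.4% of all genes in either direction. Btg2, an antiproliferative transcriptional cofactor, rose by 0.82 on the log2 scale (SE 0.11, adjusted p = 0.00842, edgeR). Sesn1, a sestrin that restrains mTORC1, rose by 0.64 on that scale (SE 0.13, adjusted p = 0.0358, edgeR), while the related Sesn2 fell by 0.78 (SE 0.14, adjusted p = 0.0255, edgeR). Plk2, a polo-like kinase, fell by 1.45 (SE 0.28, adjusted p = 0.0324, edgeR). The count of calls changed with single libraries: it was 0 without Ctrl 1 or Ctrl 3, 1 (Btg2) without Ctrl 2, CRS 1+2 or CRS 4+5+6, and 6 without CRS 3. Calls over all genes changed too, from 260 to 59 without Ctrl 1, 70 without Ctrl 2 and 56 without Ctrl 3. They were 88 without CRS 1+2, 114 without CRS 4+5+6 and 849 without CRS 3. Cdkn1a, the p21 inhibitor of cyclin-dependent kinases, had 9.47, 8.79 and 6.16 CPM in Ctrl and 16.7, 9.71 and 33.3 CPM in CRS, without overlap, and did not pass the test (log2 1.29, SE 0.39, adjusted p = 0.139, edgeR). DESeq2 called 6 of the p53 targets, Cdkn1a and Ei24 besides the 4, and 557 of 20756 genes over all.

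In CORT vs. Vehicle 5 of the 31 p53 targets were called, 4 higher and 1 lower, beside 8.13% of all genes. The median log2 fold change of the 31 was 0.04. At an unadjusted p under 0.05 (edgeR) there were 14, beside 23.4% of all genes. The CORT libraries lay wholly above Vehicle for 10 of the 31 and wholly below for 5, beside 28.7% of all genes in either direction. Neither the counts nor the p-values allow for the choice of the list with earlier results known. Sesn1 had 21.6, 24.0 and 24.6 CPM in Vehicle and 138, 137 and 90.8 CPM in CORT, a rise of 2.38 on the log2 scale (SE 0.16, adjusted p = 1.00e-04, edgeR). Cdkn1a had 4.76, 9.37 and 8.81 CPM in Vehicle and 40.1, 33.3 and 15.6 CPM in CORT, a rise of 1.95 (SE 0.35, adjusted p = 0.0110, edgeR). Btg2 rose by 1.56 on the same scale (SE 0.27, adjusted p = 0.00929, edgeR), and Ei24, a protein of the endoplasmic reticulum, by 0.50 (SE 0.10, adjusted p = 0.0153, edgeR). Aen, a p53-induced nuclease, fell by 0.47 (SE 0.07, adjusted p = 0.00550, edgeR). CORT 5 was the lowest of the CORT libraries in Trp53, Trp53inp1, Trp53inp2, Pmaip1, Sesn1, Cdkn1a and Btg2. It was the highest in Mdm2, Ccng1, Phlda3, Bax, Bbc3 and Ei24, and lay between the others in Aen. In Vehicle vs. Ctrl 1 of the 31 was called, Sesn1, which fell by 0.76 (SE 0.12, adjusted p = 0.0191, edgeR), beside 0.799% of all genes. This call was lost without any 1 of the Ctrl libraries, without Vehicle 6 and with limma on FPKM (adjusted p = 7.34e-05 to 0.239 over the 15 alternatives). That of Ei24 in CORT was lost without Vehicle 5, CORT 4 or CORT 5 and with limma on FPKM without a filter (1.93e-05 to 0.0778). Dram1 and Trp53cor1 were not tested. Trp53cor1 had 0 counts in all libraries and Dram1 at most 5, under the 12 counts that 3 read pairs give.

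**Figure D5:**
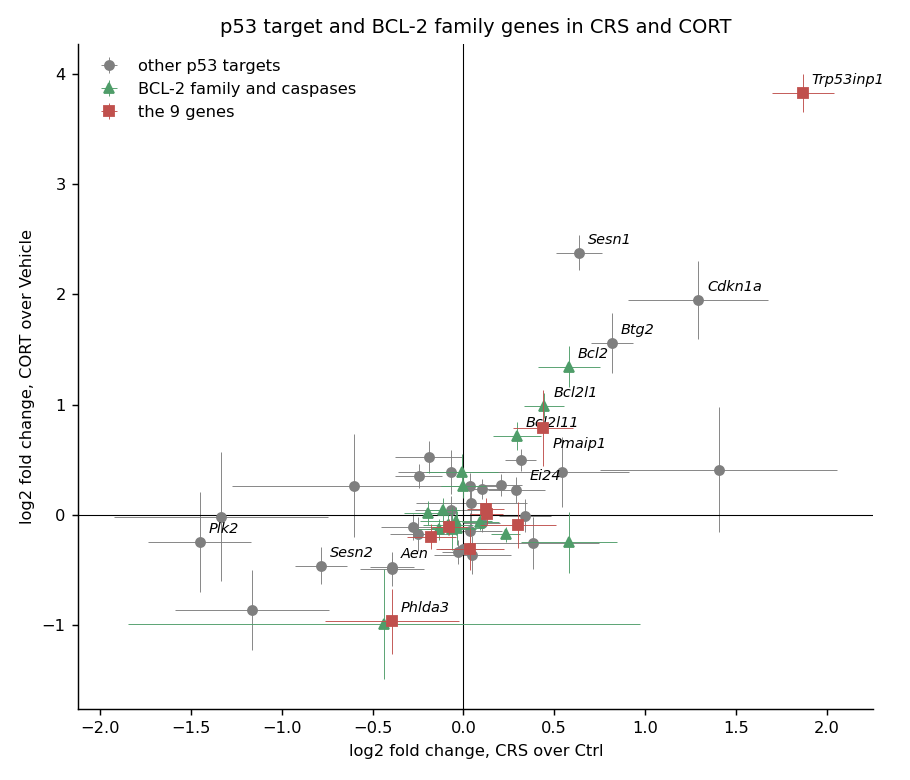
Log2 fold change in CRS vs. Ctrl (x axis) and in CORT vs. Vehicle (y axis) of the 9 genes (red), 31 other p53 targets (grey) and 16 genes of the BCL-2 family and caspases (green), with bars of ± 1 standard error. Genes of the grey and green lists called in either comparison are named. Trp53inp1 is at the upper right (1.87 and 3.83), and most genes lie near 0 on both axes.

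Of 21 regulators of p53, 18 were tested, and 0 were called in CRS vs. Ctrl or Vehicle vs. Ctrl with edgeR or DESeq2, beside 1.89% and 0.799% of all genes with edgeR, while 1 (Atm) and 2 (Atm and Daxx) had an unadjusted p under 0.05, beside 15.2% and 11.1%. In CORT vs. Vehicle 1 was called, beside 8.13% of all genes, and 6 had an unadjusted p under 0.05 (edgeR), beside 23.4%. Chek1, the checkpoint kinase and the 1 called, rose by 0.44 on the log2 scale (SE 0.09, adjusted p = 0.0181, edgeR). That call was lost without Vehicle 5, Vehicle 6, CORT 4 or CORT 5 and with limma on FPKM without a filter (0.00253 to 0.0830 over the alternatives). Mdm4, the partner of Mdm2, had log2 fold changes of -0.00 (SE 0.15, adjusted p = 0.995, edgeR) in CRS and 0.25 (SE 0.13, adjusted p = 0.286, edgeR) in CORT. The p53 relatives Trp63 and Trp73 had at most 10 and 4 counts in any library, and Cdkn2a, which encodes the Mdm2 inhibitor ARF, had 0 counts in all 12 libraries. A count of 0 allows up to 12 counts, or 0.179 to 0.746 CPM, which covers counting error only.

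Of 19 genes of the BCL-2 family and caspases, 16 were tested, with 0 called in CRS vs. Ctrl and in Vehicle vs. Ctrl and 3 called in CORT vs. Vehicle, all higher, beside 1.89%, 0.799% and 8.13% of all genes. In CRS vs. Ctrl 3 (Bcl2, Bcl2l1 and Mcl1) and in Vehicle vs. Ctrl 3 (Bcl2, Mcl1 and Bmf) had an unadjusted p under 0.05, beside 15.2% and 11.1% of all genes, and DESeq2 called 1 in each, Bcl2l1 and Bcl2. In CORT vs. Vehicle 6 of the 16 had an unadjusted p under 0.05 (edgeR), beside 23.4% of all genes. Bcl2, which blocks apoptosis, had 24.7, 29.3 and 30.8 CPM in Vehicle and 50.9, 87.8 and 77.5 CPM in CORT, a rise of 1.34 on the log2 scale (SE 0.19, adjusted p = 0.00299, edgeR). Bcl2l1, which encodes the anti-apoptotic BCL-XL and its pro-apoptotic splice form, had 35.3, 47.9 and 40.5 CPM in Vehicle and 89.0, 80.9 and 76.0 CPM in CORT, a rise of 0.99 (SE 0.12, adjusted p = 0.00131, edgeR). Bcl2l11, which encodes the BH3-only protein BIM, rose by 0.71 on that scale (SE 0.13, adjusted p = 0.00993, edgeR). Its call was lost without CORT 4 and with limma on FPKM without a filter (1.97e-05 to 0.0874 over the alternatives). Genes on both sides of the apoptotic balance were thus among the 3. This list too was chosen with earlier results of these data known. Mcl1, another anti-apoptotic member, had log2 fold changes of 0.23 (SE 0.08, adjusted p = 0.206, edgeR) in CRS and -0.18 (SE 0.07, adjusted p = 0.146, edgeR) in CORT.

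The 9 partners of Trp53inp1 and Trp53inp2, the LC3 and GABARAP genes (Map1lc3a, Map1lc3b, Gabarap, Gabarapl1 and Gabarapl2), the autophagy protein gene Vmp1, the thyroid hormone receptor genes Thra and Thrb, and the kinase gene Prkcd, were all tested and 0 were called with edgeR in CRS vs. Ctrl, CORT vs. Vehicle or Vehicle vs. Ctrl, where 1.89%, 8.13% and 0.799% of all genes were. Their log2 fold changes were -0.12 to 0.42 in CRS vs. Ctrl, -0.12 to 0.32 in CORT vs. Vehicle and -0.52 to 0.04 in Vehicle vs. Ctrl. Vmp1 had the smallest adjusted p, 0.0564 with edgeR in CRS vs. Ctrl, with 84.9, 86.4 and 91.5 CPM in Ctrl and 131, 110 and 111 CPM in CRS, and was called by DESeq2. In that comparison 3 of the 9 partners (Vmp1, Thrb and Map1lc3b) had an unadjusted p under 0.05, beside 15.2% of all genes. None (0) did in CORT vs. Vehicle and Vehicle vs. Ctrl, beside 23.4% and 11.1%, and DESeq2 called 0.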

How the data were processed

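RNA-seq was deposited for 12 libraries of sorted ISCs. Per the labels, reads were aligned to mm10 with HISAT2 2.2.1 and quantified with StringTie 2.2.1, while the study's methods name featureCounts as the counter. The authors deposited a table of estimated counts for 47729 genes. In genes with 1 transcript, coverage times length came to 75 bases a count, so the counts were treated as estimated counts. The authors also deposited FPKM and coverage (a signal per base). FPKM served between genes and in alternatives, and coverage for the unit of the counts. Overlapping genes can share counts, since the use of strand is not given in the sources used here. Columns without a sample numbered 0.

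Groups came from the labels. The test was edgeR 4.0.16 (quasi-likelihood, TMM, filterByExpr, Benjamini-Hochberg over all genes) in R 4.3.3, on the 6 libraries of a comparison, or on 12 for the difference of responses. Called means an adjusted p below 0.05, at any fold unless 2-fold is stated. Levels are CPM with TMM factors. Alternatives used DESeq2 1.42.0, limma 3.58.1 on log2(FPKM + 1) or log2(FPKM + 0.1) for genes with a mean FPKM of at least 1, other filters, other size factors, counts divided by 4, all 12 libraries, and leaving out each library. The fits were tested on simulated data. All 9 genes, the genes called in each list, a fixed set of p53 family, BCL-2 family and partner genes, and the 5 nearest profiles are named. The 9 genes and the lists were chosen with earlier results of these data known. The lists were p53 targets, p53 regulators, BCL-2 family and caspases, partners, early response genes and markers of 8 cell types. Sequences are from GENCODE vM21 and RefSeq. The depth limits counting error only.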

Additional observations from a re-analysis of the deposited data

Results flagged for a closer look

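The log2 fold change of Trp53inp1 was 1.87 in CRS vs. Ctrl and 3.83 in CORT vs. Vehicle, a difference of -1.96 (SE 0.26). It is listed because it passed an adjusted p of 0.05 in the fit across the 12 libraries, and since the CORT change was known when the gene was chosen, it is given as a description. The p53 target Sesn1 also responded more to CORT than to CRS, by -1.74 (SE 0.22, adjusted p = 0.00434, edgeR), with log2 fold changes of 0.64 in CRS and 2.38 in CORT. The list that holds Sesn1 was chosen with earlier results of these data known, so this is a description too. Trp53inp1 and Sesn1 both had lower mean levels in Vehicle than in Ctrl. Sesn1 had a mean of 39.7 CPM in Ctrl and 23.4 CPM in Vehicle, beside 61.7 CPM in CRS and 122 CPM in CORT. In this test 0.388% of 14415 genes passed. CRS libraries held 15934907 to 17135770 counts and CORT libraries 29426183 to 69533214, and the part of depth was not tested.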

How the results depend on the processing

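Trp53inp1 was called in CRS vs. Ctrl in all 15 alternatives, with log2 fold changes of 1.68 to 2.07. They were 3.28 to 3.98 in CORT vs. Vehicle, given as a description. The number of the 9 genes called in CRS vs. Ctrl was 1 in every alternative. In CORT vs. Vehicle it was 2 (Trp53inp1 and Phlda3) with DESeq2 and with limma on log2(FPKM + 1) or log2(FPKM + 0.1), from which nothing is read since this contrast chose the genes. In Vehicle vs. Ctrl it was 1 (Trp53inp1) with DESeq2, and nothing is read from that either. In the difference of responses it was 0 with limma without a filter, where more genes are tested, and 1 in the others. The p53 targets called in CRS vs. Ctrl numbered 0 without a filter and with unfiltered limma, 1 with limma on either FPKM scale, 2 in the fit of 12 libraries, and 0 to 6 when 1 library was left out. In CORT vs. Vehicle they numbered 9 with DESeq2, 2 with unfiltered limma and 4 to 6 when 1 library was left out. All-gene calls in CRS vs. Ctrl were 260 in the main fit, 46 without a filter, 27 with unfiltered limma and 510 with 12 libraries. They were 89 and 88 with limma on log2(FPKM + 1) and log2(FPKM + 0.1). Leaving out 1 library gave 56 to 849. In CORT vs. Vehicle all-gene calls were 1192 in the main fit, 1788 with DESeq2 and 561 with unfiltered limma. Leaving out 1 library gave 503 to 1003 there. The cause of these changes was not tested.

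Differences near 0 changed sign when 1 library was left out, and ran from -0.14 to 0.018 for Trp53 in CRS, -0.024 to 0.055 for Trp53 in Vehicle vs. Ctrl, -0.11 to 0.19 for Trp53inp2 in CRS (-0.010 without Ctrl 3), -0.041 to 0.17 for Bax in Vehicle vs. Ctrl and -0.023 to 0.16 for Bbc3 in Vehicle vs. Ctrl. In CORT vs. Vehicle, as a description, they ran from -0.005 (without CORT 5) to 0.12 for Mdm2 and from -0.32 to 0.052 (without CORT 2) for Bbc3. No paired analysis was possible because the groups compared share fewer than 2 library numbers. Counts of 50 to 277 a library limit the precision for Phlda3.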
